A study of Mus musculus with 13 samples.

Results

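Pseudogenes are copies of genes that no longer carry an intact or known function, and 91 of the 11779 genes listed for mouse liver in this study were of that type. They were chosen by the gene type written beside each gene in the authors' table, where the other rows held 11396 protein-coding genes, 234 noncoding RNAs and a few small RNAs. The livers came from Balb/c mice, 3 given a GalNAc-conjugated antisense oligonucleotide (ASO) against firefly luciferase (Luc ASO) and 3 given a mix of 5 GalNAc-conjugated ASOs against the lncRNA LL35 (LL35 ASO), all collected 5 days after injection. The authors state that the mix held 5 ASOs, whereas their list of LL35 ASOs for mice names fewer. GalNAc is a sugar that is taken up by a receptor of hepatocytes, so both groups carried ASOs aimed at the same cells. Neither the age nor the sex of the mice was used here, and 7 samples of the hepatocyte line AML12 were not analysed here. The value used for each gene is the authors' mean normalized count over all 6 livers, both groups together, so no value of a single mouse, no spread between mice and no comparison of LL35 ASO with Luc ASO stands behind any number below. No row carried the symbol of LL35, 9030622O22Rik, so the knockdown itself was not checked here.

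A processed pseudogene arises when an mRNA is copied back into DNA and inserted elsewhere, so it lacks introns and usually a promoter of its own. An unprocessed pseudogene arises when a gene is duplicated along the chromosome and then decays, and it often keeps the exons and the neighbourhood of its family. A unitary pseudogene is a gene that decayed with no working copy left. Liver carries many families of duplicated genes for detoxification and secreted proteins, such as cytochromes P450, UDP-glucuronosyltransferases, sulfotransferases, serpins and murinoglobulins, and each of these families has pseudogenes. Because a pseudogene resembles its parent, a sequencing read can match both, and the counting used here kept reads with a single alignment only. The mice were Balb/c, whereas the reference sequences are those of C57BL/6J, and strain differences were not analysed here.

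The labelled tissue was checked against markers of liver cells. All 8 hepatocyte markers were listed, at mean normalized counts from 10070 for Serpina1a to 1217472 for Alb. The 5 Kupffer cell markers ranged from 194 to 1954, the 4 markers of sinusoidal endothelium from 359 to 2171 and the 4 stellate cell markers from 51.8 to 1549. Of 4 cholangiocyte markers only Sox9 was listed, at 41.1, and of 3 T cell markers only Cd3e, at 18.6. Of 3 erythroid markers Hba-a1 was listed at 316 and Alas2 at 76.1, and Hbb-bs was not listed. Fewer cells of a type and less RNA per cell cannot be told apart in such bulk samples.

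The sequences that the results turn on are printed first, from the transcripts of GENCODE M21 (build GRCm38). Each is the stretch of 90 bases, free of gaps, that holds the most differences between a pseudogene and the coding sequence of its parent, written 5′ to 3′ in the sense of the parent. Capitals mark the bases that differ between the members of a pair. Zbed4-ps2 and Zbed4-ps1 are shown because both stood above their parent Zbed4, which encodes a BED-type zinc finger protein. The stretch of Zbed4-ps2 lies at chr7:13753772-13753861 on the plus strand against coding bases 989 to 1078 of Zbed4, with 15 differences.
Zbed4: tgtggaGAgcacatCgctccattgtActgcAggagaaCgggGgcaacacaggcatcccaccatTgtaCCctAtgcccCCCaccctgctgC
Zbed4-ps2: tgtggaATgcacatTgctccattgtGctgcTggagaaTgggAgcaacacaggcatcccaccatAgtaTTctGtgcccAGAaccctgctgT
The stretch of Zbed4-ps1 lies at chr7:13640167-13640256 on the plus strand against coding bases 1063 to 1152, with 11 differences.
Zbed4: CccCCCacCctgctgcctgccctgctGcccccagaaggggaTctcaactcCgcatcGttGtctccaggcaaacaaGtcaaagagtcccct
Zbed4-ps1: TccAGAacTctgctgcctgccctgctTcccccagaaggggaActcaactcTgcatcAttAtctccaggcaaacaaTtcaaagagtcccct
Kat6b-ps2 is shown because it lies beside these copies and covers only a part of its parent, the lysine acetyltransferase gene Kat6b. Its stretch is at chr7:13814824-13814913 on the minus strand, against coding bases 4153 to 4242, with 15 differences.
Kat6b: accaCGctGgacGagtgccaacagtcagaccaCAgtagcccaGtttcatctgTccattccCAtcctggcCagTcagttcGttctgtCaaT
Kat6b-ps2: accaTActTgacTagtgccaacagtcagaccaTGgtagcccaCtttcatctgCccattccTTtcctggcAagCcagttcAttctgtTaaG

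Rpl3, which encodes a protein of the large ribosomal subunit, has a copy that is nearly identical and a copy that has diverged far, and these are shown as the extremes. In Rpl3-ps1 the richest stretch held 1 difference, at chrX:13202572-13202661 on the plus strand against coding bases 1 to 90.
Rpl3: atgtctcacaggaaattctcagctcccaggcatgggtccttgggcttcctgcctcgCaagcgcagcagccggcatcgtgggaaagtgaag
Rpl3-ps1: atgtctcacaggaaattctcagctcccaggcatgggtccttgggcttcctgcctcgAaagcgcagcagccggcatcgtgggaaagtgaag
In Gm15712 it held 30 differences, at chr16:43185215-43185304 on the plus strand against coding bases 676 to 765.
Rpl3: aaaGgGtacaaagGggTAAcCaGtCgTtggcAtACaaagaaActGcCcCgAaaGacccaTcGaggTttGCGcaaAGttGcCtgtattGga
Gm15712: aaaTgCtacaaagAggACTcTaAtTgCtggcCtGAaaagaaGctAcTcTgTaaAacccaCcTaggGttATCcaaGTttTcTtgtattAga
Gm15459 and Rps18-ps6 are shown because they had high levels beside parents from which they hardly differ. Gm15459 differed at 1 base from Hspa8, the constitutive 70 kDa heat shock protein, in its stretch at chr5:5783442-5783531 on the minus strand against coding bases 25 to 114.
Hspa8: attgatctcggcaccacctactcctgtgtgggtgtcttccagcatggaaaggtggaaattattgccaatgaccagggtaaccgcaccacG
Gm15459: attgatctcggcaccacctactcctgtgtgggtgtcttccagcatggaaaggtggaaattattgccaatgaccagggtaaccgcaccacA
Rps18-ps6 differed at 2 bases from Rps18 at chr13:97760218-97760307 on the minus strand, against coding bases 282 to 371.
Rps18: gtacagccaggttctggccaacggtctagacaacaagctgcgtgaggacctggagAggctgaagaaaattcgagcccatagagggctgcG
Rps18-ps6: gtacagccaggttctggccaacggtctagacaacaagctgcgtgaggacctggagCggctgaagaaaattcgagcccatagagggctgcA

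Most pseudogene transcripts were found at low levels, and a few were as abundant as well-expressed liver genes. Over the 91 pseudogenes the mean normalized count ran from 15.6 to 4560 with a median of 42.2, beside a median of 235 over all 11779 rows, 244 over protein-coding rows and 51.3 over noncoding RNAs. There were 14 pseudogenes above the median of all rows, 27 at 100 or more and 36 below 30. The lowest value of the whole table was also 15.6, so pseudogenes with lower levels are not among the rows and the figures describe the listed ones only. All 91 together made up 0.180% of the summed mean normalized counts, and the 3 highest of them supplied 54.6% of that part. Pseudogenes are short, with a median of 1032 annotated exon bases beside 4520 over all rows. Per kilobase (kb) of annotated exon their median was 39.0, beside 51.5 over all rows, so the gap was much narrower on this scale. The lowest listed count is the same for genes of every length, so a short gene needs a higher level per kb to be listed. How much of the narrowing comes from that limit was not tested.

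The GENCODE M21 annotation held 90 of the 91 and gave 58 as processed, 22 as unprocessed and 3 as unitary pseudogenes, while it listed 6 as protein-coding and 1 as an antisense RNA. The unprocessed group had a median count of 131 and the processed group 33.4. On the scale per kb of exon the unprocessed median was 130 and the processed one 37.6, so the order was the same on both scales. The 3 unitary pseudogenes, Slc2a4rg-ps, Zfp862-ps and Thap6, lay between 59.2 and 133 in count. The 6 that M21 calls protein-coding, among them Rps18-ps6, Mfsd4b3-ps and Tes3-ps, ran from 15.9 to 305. The gene types of the 2 sources thus overlapped but were not the same: M21 calls 100 rows of the table a pseudogene, of which 83 are among the 91, and 9 of the other 17 are polymorphic pseudogenes, which are intact in some strains.

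**Figure D1:**
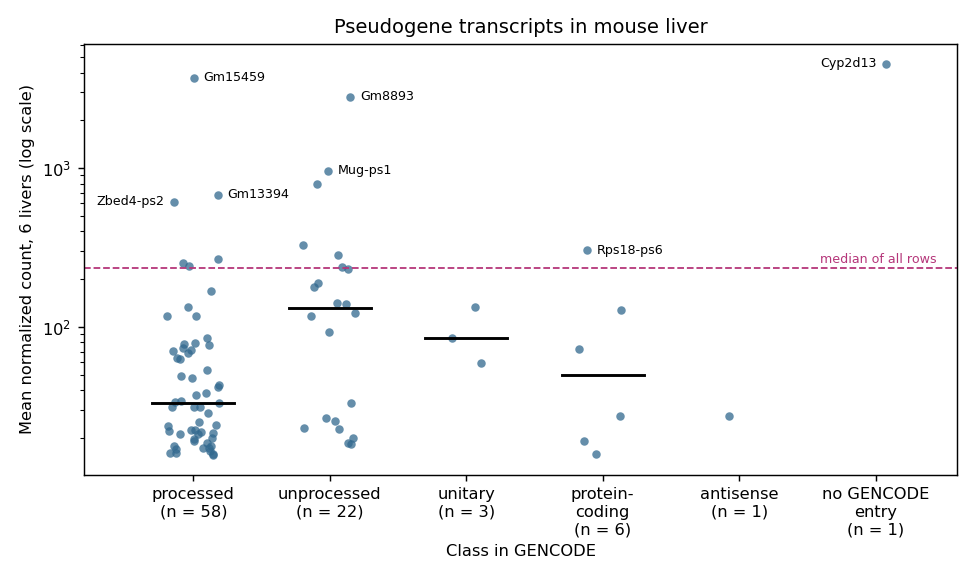
Mean normalized count over 6 livers (log scale) of each of the 91 pseudogenes by its class in GENCODE M21, with a bar at the median of each class of more than 1 gene and a dashed line at the median of all rows, 235. Most processed pseudogenes sit below 100, whereas the unprocessed ones spread from 18.3 to 2816.

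The highest pseudogene was Cyp2d13 (ENSMUSG00000118516), a member of the family of P450 enzymes that oxidise many drugs, at a mean normalized count of 4560. It had no entry in M21, so its length and sequence were not used, and its rank was 291 among all rows. The coding genes of its family stood at 9277 for Cyp2d26, 4831 for Cyp2d22, 4013 for Cyp2d10, 176 for Cyp2d9 and 99.4 for Cyp2d40 in counts. Cyp2d36-ps, an unprocessed copy on chromosome 15, had a count of 796, or 541 per kb of exon beside 5177 per kb for Cyp2d26, its closest coding match. It had diverged to 81.0% identity with 10 stop codons in the frame of Cyp2d26, and each of its 1424 windows of 50 bases was absent from all other transcripts. No other annotated transcript thus matches it exactly over 50 bases.

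Gm15459 (ENSMUSG00000100801, chr5:5781615-5783555) followed with a count of 3718. It is a processed copy of Hspa8 with 5 differences over the whole coding sequence, an identity of 99.7%, and no stop codon or shift in the frame. Per kb of exon it reached 1916 beside 1342 for Hspa8, whereas in undivided counts it stood below Hspa8, at 5773. Only 117 of its 1892 windows of 50 bases, 6.18%, were found in no other transcript, so its whole count of 3718 should rest on these windows if reads were of that length and the mice had the reference sequence. That amounts to 31778 counts per 1000 such windows, the highest of the 90 pseudogenes with a sequence, whose median was 60.1. When Gm26825, a gene on the opposite strand at the same place, was searched too, 22 windows (1.16%) were left and the measure rose to 169000. Whether reads of Hspa8 were counted for it was not tested. Gm13394, a processed copy of the glycolytic enzyme gene Gapdh, followed in this measure, with a count of 679, a single difference over its coding part (99.9% identity) and 13588 counts per 1000 windows of its own.

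Gm8893 was the third in count, at 2816, and is an unprocessed member of the cluster of Serpina1 genes on chromosome 12, which encode alpha-1-antitrypsin. It carried 1 stop codon in the frame of Serpina1a at an identity of 98.8%, and 41.0% of its windows were its own. Its level was 2268 per kb of exon, beside 10484 for Serpina1b, 5497 for Serpina1a, 5249 for Serpina1d, 4262 for Serpina1c and 840 for Serpina1e. It was therefore above Serpina1e and below the other coding members of the cluster on that scale. It lies within an annotated intron of Serpina1b, on the same strand.

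The murinoglobulins are secreted protease inhibitors of the alpha-macroglobulin family, and 3 of their pseudogenes were listed within 516 kb of chromosome 6. Mug-ps1 had a count of 966, or 187 per kb of exon, Gm10319 had 329, or 228 per kb, and Gm7298 had 19.2, or 4.12 per kb. The coding genes stood at 7181 per kb for Mug1 and 72.1 per kb for Mug2. Per kb, both Mug-ps1 and Gm10319 thus stood above Mug2, and all 3 stood below Mug1. In undivided counts Mug2 had 330, so only Mug-ps1 was above it. The identity to the closest coding gene was 95.6% for Mug-ps1, 97.0% for Gm10319 and 93.9% for Gm7298. Of their windows, 57.2%, 78.8% and 82.7% were found in no other transcript.

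Another cluster was that of the Ugt1a genes on chromosome 1, whose enzymes attach glucuronic acid to bilirubin and drugs. All its coding genes share their last exons and differ in the first, and 6 single-exon pseudogenes were listed within 167 kb. Their counts ran from 93.4 for Gm15375 through 117 for Gm15376, 140 for Gm15371, 142 for Gm15368 and 231 for Gm15372 to 239 for Gm15374. Per kb of exon the range was 110 to 283, so the 6 lay within a narrow band although their identity to the closest coding gene ran from 77.9% to 94.5%. At least 85.2% of the windows of each were its own. In counts, the coding genes of the cluster ran from 97.6 for Ugt1a10 to 1848 for Ugt1a9 and 3299 for Ugt1a1. All but Gm15375 lay in introns of 5 to 7 genes on the same strand, since the Ugt1a genes enclose each other. Ugt1a9, at 844 per kb of exon, had the highest count of the listed genes around each of these 5 and is used for them below. The exon lengths of the coding genes include the shared last exons. How reads in these exons were counted is not known, so the levels of the coding genes per kb are uncertain.

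Among the other pseudogenes of high level, 9030619P08Rik, a relative of the Ly6 surface antigens, had a count of 283, and its closest coding match, Ly6g, was not among the rows. Glns-ps1, a copy of the glutamine synthetase gene Glul, had 252, or 225 per kb of exon beside 2916 for Glul. Gm5131, a copy of the acyl-CoA dehydrogenase gene Acadm, had 244, or 197 per kb beside 1557. At the lower end stood Gm14425 at 15.6, Tes3-ps and Gm4815 at 15.9 each, Gm5626 at 16.1 and Gm5088 at 16.2 in count. These are copies of Rpl10, Dcun1d1, Cnn3, Stoml2 and Pabpc4, which were all listed, at counts between 313 and 1288.

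The name before -ps in a symbol was taken as that of the parent, and 24 of the 91 had such a symbol. It need not name a parent, since the unitary pseudogenes Slc2a4rg-ps and Zfp862-ps have no working copy. A gene of that name was listed for 12 of the 24, through 11 parents. On the scale per kb of exon 6 of these pseudogenes stood above the parent and 6 below, and the ratio of pseudogene to parent had a median of 117% and ran from 7.64% to 4559%. This median depends on the length that is used, since the exons of a parent add up over all its annotated transcripts: it was 73.7% with the longest transcript of each gene and 20.7% with no division by length. Only the Zbed4 copies stood above their parent in undivided counts. The annotated exons of some parents are far longer than those of the copy, such as 16826 bases for Kat6b beside 1600 for Kat6b-ps2 and 12101 for Glo1 beside 555 for Glo1-ps.

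**Figure D2:**
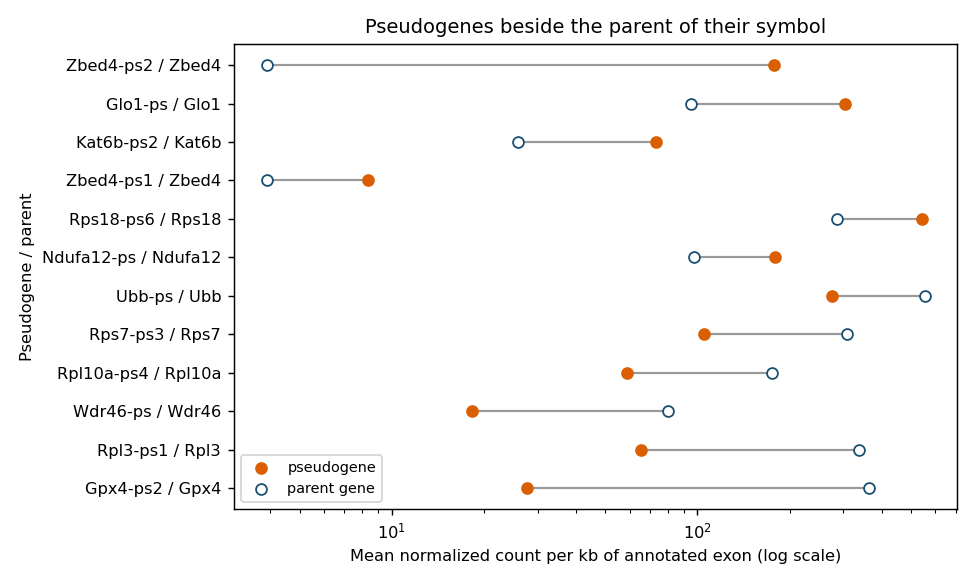
Mean normalized count per kb of annotated exon (log scale) of 12 pseudogenes (filled) and of the parent that their symbol names (open), each pair joined by a line and ordered by the ratio of the levels. The 6 pairs at the top have the pseudogene above the parent, with Zbed4-ps2 at 178 beside 3.90 for Zbed4, and the 6 below have it under the parent.

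Zbed4-ps2 was the pseudogene farthest above its parent. Its count was 613 and that of Zbed4 was 22.5, which is 178 and 3.90 per kb of exon and a ratio of 45.6. The count of Zbed4 lies near the lowest of the whole table, 15.6, so ratios to it are uncertain. Zbed4-ps2 carried 198 differences from the coding sequence of Zbed4 (94.2% identity), 7 stop codons in its frame and 14 gaps that shift the frame, so it holds no long copy of the reading frame. For Zbed4-ps2, 2635 windows, 77.5% of all, were found in no other annotated transcript, but introns were not searched. It lies in an intron of Sult2a2 on the same strand, so its transcript and that intron cannot be told apart in these counts. The same holds for Zbed4-ps1, Kat6b-ps2 and Ndufa12-ps, which lie in introns of Sult2a5, Sult2a1 and Rabgef1. Zbed4-ps1, with 94.6% identity, had a count of 28.9 and a level of 8.33 per kb, which was 2.13 times that of Zbed4. The third listed copy, Gm2602, had a count of 19.8 over a fragment that covers 16.2% of the coding sequence. Both -ps copies had nearly the same length and likeness to Zbed4, and the level of Zbed4-ps2 was above that of Zbed4-ps1 by the ratio of 613 to 28.9.

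Glo1-ps had a count of 168 beside 1154 for Glo1, the glyoxalase that detoxifies methylglyoxal, or 303 beside 95.4 per kb of exon. It was 99.5% identical with 3 differences, and 109 of its 506 windows were its own. Rps18-ps6 had 305 beside 699 for Rps18, a protein of the small ribosomal subunit, or 543 beside 285 per kb. With the longest transcript as length, Rps18-ps6 stood below Rps18, at 89.5% of it. Ndufa12-ps had 71.8 beside 152 for Ndufa12, an accessory subunit of respiratory complex I, or 179 beside 97.1 per kb. Kat6b-ps2 had 117 beside 435 for Kat6b, or 73.2 beside 25.8 per kb, and it covers 28.1% of the coding sequence with 3 stop codons.

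The other 6 pairs had the pseudogene below the parent in undivided counts and with either length. None of these scales allows for reads lost in shared sequence. Per 1000 windows of their own, the counts were 2256 for Ubb-ps, 1582 for Rpl3-ps1 and 515 for Rps7-ps3. On the same measure Gpx4-ps2 had 184, Rpl10a-ps4 had 114 and Wdr46-ps had 18.8. The measure was not computed for the parents, so the order of these pairs on it is not known. Ubb-ps, a copy of the polyubiquitin gene Ubb, was the nearest, with a count of 268 beside 927 and a ratio of 49.9% per kb. Rps7-ps3 stood at 34.1% of Rps7, Rpl10a-ps4 at 33.6% of Rpl10a and Rpl3-ps1 at 19.4% of Rpl3, all per kb of exon. With the longest transcript as length these ratios were 16.2%, 22.4% and 11.5%, and in undivided counts the copies had 68.5 beside 621, 37.2 beside 426 and 79.1 beside 1070. Wdr46-ps, a copy of a gene for a nucleolar WD-repeat protein, stood at 22.8% although it had diverged to 76.4% identity, with all of its 1663 windows its own. Gpx4-ps2 was the lowest, with a count of 22.1 beside 625 for Gpx4, the peroxidase that reduces lipid hydroperoxides, a ratio of 7.64%. Across the 12 pairs, the level of the pseudogene followed that of the parent only loosely (Spearman's rho = 0.22 per kb of exon, across genes that share the same libraries and are not independent replicates).

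For the other 12 no row carried the name before -ps, which does not show that a parent was absent. For some of these the closest coding sequence was that of a listed gene with another name. Examples were Mug-ps1, Cyp2d36-ps, Glns-ps1, a copy of Glul, and Mfsd4b3-ps, the last with a count of 128 beside 412 for Mfsd4b1. Tes3-ps matched Dcun1d1 at 99.6% identity, with a count of 15.9 and 4.86 per kb of exon beside 45.6. The P450 pseudogene Cyp21a2-ps, of the steroid 21-hydroxylase family, had 22.9, Mrgprb11-ps had 26.8 and Mup-ps4, of the major urinary proteins, had 18.3, and for each the closest coding match was not listed. Ppp4r1l-ps, at 190, Slc2a4rg-ps, at 133, Zfp862-ps, at 85.5, and Obox4-ps3, at 20.0, had no coding match that passed the limits used. The symbols Tmem250-ps, Mup-ps16, H2-T-ps and Ube2d-ps also end in -ps, at counts of 654, 15.9, 234 and 117, but their rows carry another gene type and they were left out.

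A closest coding sequence was found for 85 pseudogenes, and in all 12 pairs it was that of the parent in the symbol. The identity had a median of 95.2% and ran from 75.2% to 99.9%, with 17 pseudogenes at 99% or more and 22 under 90%. The match was listed for 76 pseudogenes, and of these 21 stood above it and 55 below it per kb of exon, with a median ratio of 30.6%. Among the 21 were all the listed Ugt1a pseudogenes but Gm15376. The lengths of their matches include the shared last exons of the cluster, so these ratios are uncertain. In undivided counts 7 of the 76 stood above the match. In 22 the level was under 10% of that of the match and in 5 it was under 1%. Among these 5 were Gm6192, a copy of the elongation factor gene Eef1a1, at 24.4 per kb beside 8276, and Gm7298 at 4.12 beside 7181 for Mug1. These copies, and others named from here on only for a group they belong to, fall outside the naming rule and were picked with their values in view.

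The reading frame was followed in the 56 pseudogenes that cover 90% or more of a coding sequence. In 42 of them a stop codon or a shift of the frame was present, and in 14 neither was. The 14 with an open frame had a median identity of 99.5% and a median count of 70.5, and included Gm15459, Gm13394, Rps18-ps6, Glo1-ps, Rpl3-ps1, Rps7-ps3 and Tes3-ps. The 42 with a broken frame had a median identity of 95.1% and a median count of 35.3. The difference in count was not tested, and an open frame does not show that a protein is made.

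Grouped by the role of the parent, as read from the start of its symbol, ribosomal proteins accounted for 12 pseudogenes. Their counts ran from 15.6 for Gm14425 to 305 for Rps18-ps6 with a median of 32.9, beside a median of 661 over the 86 listed coding genes for ribosomal proteins. In 8 of the 12 the level per kb of exon was under 20% of that of the closest coding gene. The 2 copies of Rpl3 printed above differed in likeness. Per kb of exon they were close, at 65.4 for Rpl3-ps1 and 46.6 for Gm15712, beside 337 for Rpl3. Of the windows of Rpl3-ps1 4.31% were its own, and of those of Gm15712 all were. In counts per 1000 windows of their own they were far apart, at 1582 for Rpl3-ps1 and 48.6 for Gm15712. The 13 copies on the list for metabolism, chiefly of the P450 and Ugt1a families, had a median count of 142. That list took in Mup-ps4 and left out copies of metabolic genes such as Glul, Acadm and Glo1. Its median thus does not describe the copies of all metabolic genes. The 5 copies of proteostasis and ubiquitin genes had a median of 77.9. The 3 copies of cytoskeletal genes had a median of 49.3. The translation factor genes Eef1a1 and Eif3m had a copy each, Gm6192 at 33.3 and Gm7658 at 17.1, and the list, which went by the start of the symbol, also took in Gm3791 at 31.3, a copy of the methyltransferase gene Eef1akmt4. The remaining lists by role held 2 members or fewer, and 50 pseudogenes belonged to none of the lists.

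Most copies that resemble a coding gene closely have little sequence of their own. Identity and own windows are both read from the same base differences, so this relation follows largely from how they are defined. Of the 90 pseudogenes with a sequence, 22 had under 50% of their windows of 50 bases to themselves, and 16 had all of them. In the 17 with an identity of 99% or more the median share was 23.5%, in the 41 between 90% and 99% with a listed match it was 80.6% and in the 18 under 90% with a listed match it was 100%. The 17 include 1810014B01Rik, with a share of 96.6%, whose identity of 99.1% rests on 108 aligned bases. The level per kb of exon followed that of the match most in the first group (rho = 0.60), less in the second (rho = 0.15) and not in the third (rho = -0.18), as a description across genes that share libraries and lengths. The exons of Mfsd4b3-ps overlapped those of Mfsd4b5 on the same strand, and 11 pseudogenes, Gm15459 and Rps18-ps6 among them, overlapped exons of a gene on the opposite strand, so their counts are uncertain where strand was not used. Taken alone, the share of own windows had almost no relation to the count (rho = -0.04, n = 90). Copies with fewer windows of their own than others of like identity were Gm21811, with 11.6% of windows its own at 95.8% identity to Cdh11, Mup-ps4, with 33.9% at 89.3% to Mup6, and BC023719, with 69.6% at 81.9% to Rps6. BC023719, which M21 calls an antisense RNA, shared 282 windows with H2-T22. With the overlapping genes H2-T-ps and H2-T10 searched too, 5.06% of its windows were its own.

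**Figure D3:**
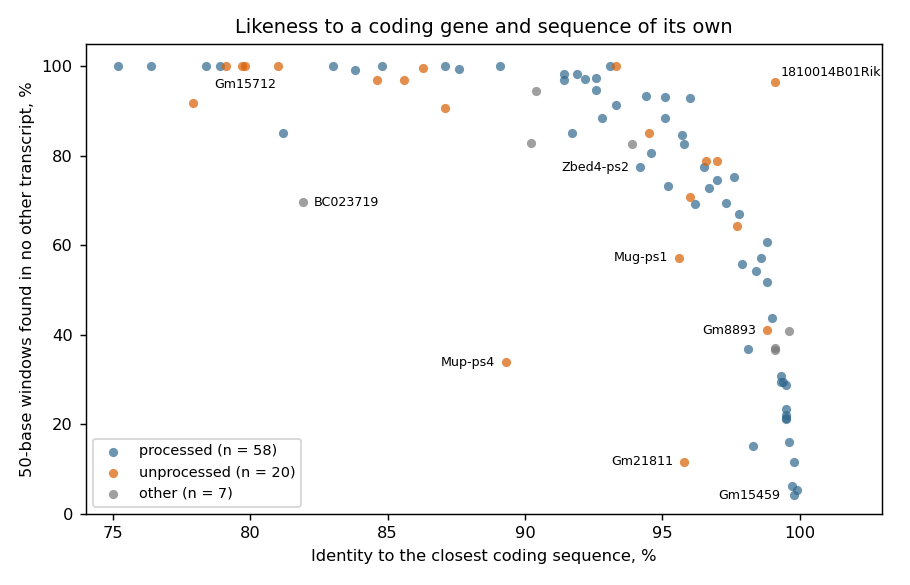
Share of 50-base windows found in no other annotated transcript (vertical axis, %) against identity to the closest coding sequence (horizontal axis, %) for 85 pseudogenes, coloured by class. The share stays high up to an identity of about 90% and drops to as low as 4.31% among the closest copies, with Gm21811, Mup-ps4 and BC023719 below the main band. Above it sits 1810014B01Rik, at 96.6% with an identity of 99.1% over 108 aligned bases.

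Gm21811 belongs with 2610005L07Rik and 6820431F20Rik to a cluster within 288 kb of chromosome 8. All 3 resemble the cadherin gene Cdh11 over 24.5% to 38.0% of its coding sequence, and Cdh11 was not among the rows. Their counts were 33.2 for 2610005L07Rik, 23.3 for Gm21811 and 18.7 for 6820431F20Rik. Per kb of exon they stood at 7.98, 25.0 and 3.73, the last being the lowest of all 90 pseudogenes with a length.

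Many of the listed processed pseudogenes lay inside genes that the liver expresses. Of the 58, 30 lay in an intron of a protein-coding gene on the same strand (51.7%) and 2 in an intron on the opposite strand (3.45%). Of the 10179 processed pseudogenes of M21 that are not members, 7.46% lay in an intron on the same strand and 12.7% on the opposite strand. The shares were not tested, and a pseudogene had to reach the lowest listed count to be among the 58. The surrounding gene was itself listed for 28 of the 30, and 27 of these 28 genes stood above the median of all rows, with a median count of 1104 and a range from 162 to 7171.

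The -ps copies of Zbed4 and Kat6b are examples in which the surrounding genes form a family. Zbed4-ps2 lay in an intron of Sult2a2, Zbed4-ps1 in one of Sult2a5 and Kat6b-ps2 in one of Sult2a1, all sulfotransferase genes for steroids and bile acids in the same part of chromosome 7. The levels of these 3 genes were 1238, 252 and 1397 per kb of exon, and the pseudogenes stood at 14.4%, 3.30% and 5.24% of them. Of the -ps copies of Zbed4, that in the gene of higher level also had the higher level. Kat6b-ps2, in the gene of the highest level of these, stood below Zbed4-ps2, at 73.2 beside 178 per kb. Gm2602, which lay in no intron of a coding gene, stood at 34.7 per kb beside 8.33 for Zbed4-ps1. A relation to the level of the surrounding gene was not tested for these copies. Gm15712, the diverged copy of Rpl3, lay in the transcription factor gene Zbtb20 and stood at 22.7% of it, and Gm6493, a copy of the importin gene Tnpo1, lay in the kininogen gene Kng2 and stood at 5.99% of it. Wdr46-ps lay in Akap9 at 19.3%, and Rpl10a-ps4 in Cd302 at 3.42%.

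Over the 28, the pseudogene stood at a median of 21.0% of the surrounding gene per kb of exon, and 27 stood below it. The exception was Ndufa12-ps, in Rabgef1, at 256%, which was also the only one of the 28 with an identity of 99% or more. The levels of pseudogene and surrounding gene rose together per kb of exon (rho = 0.56) and less so in undivided counts (rho = 0.35), as a description over 28 genes from the same libraries. A read from an unspliced transcript of the surrounding gene that falls on the pseudogene is counted for the pseudogene, so a transcript of the pseudogene and an intron of its surrounding gene cannot be told apart in these counts.

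**Figure D4:**
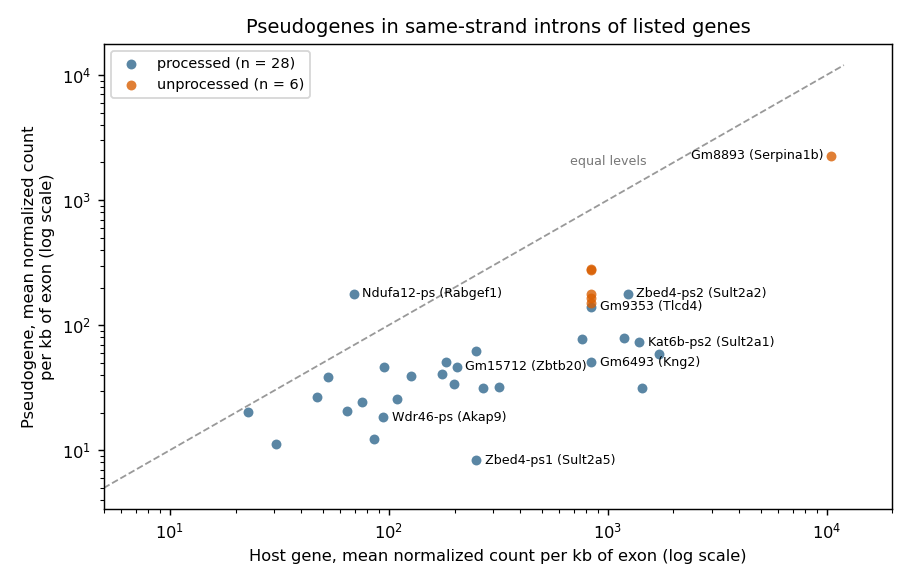
Mean normalized count per kb of exon of 34 pseudogenes (vertical axis, log scale) against that of the listed gene in whose intron they lie on the same strand (horizontal axis, log scale), with a dashed line at equal levels. All but Ndufa12-ps sit below the line, and the 5 unprocessed points in a column are the pseudogenes within Ugt1a9, the gene of highest count around them.

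The 28 processed pseudogenes that lay in no intron on the same strand had a median identity of 98.5% and a median of 47.7% of windows of their own, beside 92.7% and 94.1% in the 28 within listed genes. Of them 11 had an identity of 99% or more, beside 1 in the other group. The median counts were close, at 38.2 outside such introns and 32.4 within.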

How the data were processed

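RNA of 3 Liver Luc ASO and 3 Liver LL35 ASO samples was sequenced by the authors from strand-specific libraries. They aligned reads with STAR 2.5.3a, counted them on Ensembl genes and the authors normalized the counts by the RLE method of DESeq2. The genome build, the annotation release and the strand setting of the counting are not given in the sources used here. The deposited signal is the mean normalized count of each gene over the 6 livers. The table also holds 5 columns of the authors' comparison (log2 fold changes with errors, Wald statistics, raw and adjusted p-values), which were not used, and 0 columns of single samples. Depth per sample, and the precision it gives, are therefore unknown.

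Exon lengths (union over transcripts), classes and positions came from GENCODE M21. Of the 11779 identifiers, 11754 matched. Each pseudogene was matched by BLAST 2.17.0 to whole transcripts that hold a complete coding sequence. It was then realigned to the longest coding sequence of the matched gene with Biopython 1.88. A match was kept with 100 or more aligned bases and an identity of 70% or more. Windows of 50 bases were looked for on both strands in the transcripts of all genes that do not overlap the pseudogene, since no genome was used. The alignment and window measures were tested on 200 simulated sequences that held planted base changes only. Shifts of the frame, the BLAST match and the handling of overlapping genes were not tested in that way. Scripts ran under Python 3.11.15 with pandas 2.3.3, scipy 1.17.1 and matplotlib 3.10.9. By rule, the text names members with -ps symbols and their parents, the 15 highest and 5 lowest members, and families of 3 or more members. Members and lists were chosen with earlier results of these data known. Alternatives changed the annotation, the lowest count, the length, the parent and the window, or left out the highest member. Of several genes around a pseudogene, the listed one with the highest count was used. No test was run, since no column holds a replicate.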

Additional observations from a re-analysis of the deposited data

How the results depend on the processing

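The pseudogene levels, the ratio to the parent and the share of own windows were recomputed under other choices of annotation, lowest count, length, parent and window, and without the highest member. With only members at a mean normalized count of 50 or more, the median count was 133 in place of 42.2. The median ratio of 117% over the 12 pairs was 73.7% with the longest transcript as length, 20.7% with no division by length, 30.6% over the 76 members with a listed best match and 42.0% without the Zbed4 pairs, the last chosen after seeing the data. With no division by length the ratio of Glo1-ps to Glo1 turned to 14.6%, that of Kat6b-ps2 to 26.9%, that of Ndufa12-ps to 47.1% and that of Rps18-ps6 to 43.6%, and Rps18-ps6 also turned to 89.5% with the longest transcript. The other 3 of these 4 stayed above the parent with the longest transcript, and Zbed4-ps2 and Zbed4-ps1 stood above Zbed4 on each scale. Of the 24 recomputed ratios of single pairs, 13 moved by over 1.5 times and kept their side of the parent. The number of pseudogene rows (100 by the M21 annotation), their share of the summed counts (0.139% to 0.169%) and the median share of own windows (74.3% to 93.1%) stayed within a factor of 1.5 of their values. The windows were also searched with overlapping genes included, chosen after seeing the data, which gave 79.7%. No paired analysis was possible because the deposited values are means over all livers. Leaving out a replicate was not possible for the same reason. Depth per library is unknown, so counting error could not be given.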
